A study of Mus musculus with 12 samples.

Results

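Gal, Ntf5, Penk and Nrn1 encode secreted or surface-released peptides and proteins that are best known from the nervous system. They were followed across 5 sorted populations of mouse CD4+ T cells. The members were taken by gene symbol from the probe annotation, which gave each of the 4 genes 1 probe set, so that 4 of the 45101 probe sets on the array, and 4 of the 18194 genes named by them, are described. Gal and Ntf5 were chosen by their log2 signal, which is higher in follicular helper T cells (Tfh) on these same arrays, so their levels in comparisons with a Tfh group are given as a description with no test. Penk and Nrn1 were listed as further genes of the same kind.

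All 12 arrays came from mice with the genotype S1pr2V/+, in which a Venus fluorescent protein reports the gene of the sphingosine-1-phosphate receptor S1pr2. Mice had been injected under the skin with chicken gamma globulin (CGG) in complete Freund's adjuvant (CFA) 10 days earlier, and each array held amplified RNA, from 20 ng, of cells pooled from 2 to 6 mice. The populations from lymph nodes were all high for the activation marker CD44. They were Venus-high Tfh (CXCR5+, PD1-high, 3 arrays), Venus-low Tfh (CXCR5+, PD1-high, 3 arrays), PD1-intermediate Th cells (CXCR5+, 2 arrays) and PD1-low Th cells (CXCR5-low, 2 arrays). Naive CD4+ T cells (CD44-low, CD62L-high, 2 arrays) were sorted from spleen, and their sample labels call the donors immunized while the series' design text also mentions control mice. Age and sex were not given, no group without the reporter allele was used, and every array is a pool, so the spread between mice was not measured. P-values measure the spread between the arrays of these pools. In the fit of groups alone that spread includes shifts between sets of arrays, which are described below. The number of arrays limits the precision.

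Galanin is a neuropeptide cut from a longer precursor, and it signals through the G protein-coupled receptors Galr1, Galr2 and Galr3. Ntf5 encodes a neurotrophin, a growth factor for neurons that acts on the receptor tyrosine kinase TrkB (Ntrk2) and on the shared low-affinity receptor Ngfr. Penk encodes proenkephalin, the precursor of the enkephalins, which act on the delta and mu opioid receptors (Oprd1 and Oprm1), and it is also known as a gene of regulatory T cells. Nrn1 encodes neuritin, a small protein held on the cell surface by a lipid anchor that promotes neurite growth, and it is known in regulatory T cells and in unresponsive T cells.

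Values are log2 signals, and log2 5 served as the level that a probe set had to reach on at least 2 arrays to be tested. All 4 genes passed. Galanin's gene lies on chromosome 19 (3409915 to 3414544), Ntf5 on chromosome 7 (45413695 to 45417179), Penk on chromosome 4 (4133536 to 4138815) and Nrn1 on chromosome 13 (36725622 to 36734477), in the RefSeq annotation of GRCm38.p6.

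The promoter of Gal is shown because Gal was picked for its Tfh-high pattern and was the one member with an entry in the promoter table. The sequence is the 250 bases before the RefSeq start of the gene, chr19:3414545-3414794 of GRCm38.p6, minus strand, read in the direction of transcription. Capitals mark the letters GGAAA, the core bound by NFAT, the transcription factor that T cell receptor signalling activates.

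Gal: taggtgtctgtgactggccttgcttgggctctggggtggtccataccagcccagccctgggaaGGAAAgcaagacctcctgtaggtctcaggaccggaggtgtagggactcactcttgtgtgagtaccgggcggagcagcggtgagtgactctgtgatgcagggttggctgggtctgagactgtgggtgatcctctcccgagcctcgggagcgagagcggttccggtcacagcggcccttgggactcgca

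Of the motifs searched on both strands, GGAAA had 1 match in this window, and 55.6% of the 32851 promoter windows of the same length hold one. The E-box CANNTG, bound by helix-loop-helix factors such as Ascl2, had 0 matches, and 66.2% of windows hold one. The cyclic AMP response half-site TGACG (17.8% of windows), the AP-1 site TGANTCA (6.75%) and the STAT site TTCNNNGAA (7.02%) also had 0 matches. Since GGAAA alone had a match, the window holds no overlap between motifs. A match is a description of letters, and the arrays hold no measurement of binding.

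Before the members' values, the arrays themselves need a description. By the quantiles of their values the 12 arrays fell into 3 sets that the labels do not name. Set 1 held array 1 of Venus-high Tfh, Venus-low Tfh and naive cells. Set 2 held array 2 of the same groups and PD1-low array 1. Set 3 held array 3 of both Tfh groups, both PD1-intermediate arrays and PD1-low array 2. The lymph node pools held 6 mice in set 2 and 4 mice in sets 1 and 3, and both naive pools held 2 mice. The part of pool size in the sets was not tested. In a fit of group and set, 3315 probe sets of set 2 stood over 3 log2 units away from their level in either remaining set, against 542 in set 1 and 234 in set 3. Nrn1 was one of those of set 3, where its signal was 4.77 above set 1 and 3.67 above set 2. Penk stayed just inside, at 3.03 above set 1 and 2.96 above set 2. Gal and Ntf5 differed less, with set 3 above set 1 by 0.79 and 1.62. Differences are therefore given between groups, within each set that holds both groups, and in a second fit with the set as a term. As a check of the labels, S1pr2 was 12.89 ± 0.27 (SD, n = 3) in Venus-high and 10.25 ± 0.41 (SD, n = 3) in Venus-low Tfh. All 8 Tfh genes of the marker list, such as Cxcr5, Pdcd1 and Il21, reached log2 5 in both Tfh groups. In PD1-intermediate, PD1-low and naive cells 7, 6 and 4 of them did, so reaching this level alone does not separate the groups. Markers of other cells also reached log2 5 on some array. These were 4 of 7 for B cells, 4 of 6 for CD8 T and NK cells and 4 of 5 for plasma cells. For myeloid cells they were 1 of 8, for stromal and endothelial cells 2 of 5 and for neural cells 2 of 5. Cd22, a lectin of B cells, averaged 12.51 in Venus-high Tfh and 3.98 in PD1-low cells, and Cd79b reached 8.99, while Cd79a, Ms4a1 and Blnk of the same list never reached log2 5. Klrd1, a receptor subunit of NK cells, reached 11.50 and averaged 2.25 in Venus-high Tfh and 11.15 in PD1-low cells, while Cd8a stayed below log2 5. Mbp, a myelin gene, reached 13.48, and Snap25, Tubb3 and Gfap stayed below log2 5. Among plasma cell markers, Sdc1 averaged 7.94 in Venus-high Tfh and 2.96 in PD1-low cells, and Jchain 6.46 and 3.75. Xbp1 averaged 10.51 and 9.76, while Prdm1 went the other way at 4.11 and 6.33, and Tnfrsf17 stayed below log2 5. Cd68, the myeloid marker that reached log2 5, averaged 9.10 in Venus-high Tfh and 5.19 in PD1-low cells. The mean over the B cell list ranged from 3.94 to 4.93 on the Venus-high, 4.21 to 4.95 on the Venus-low, 3.99 to 4.06 on the PD1-intermediate, 3.46 to 4.25 on the PD1-low and 3.11 to 3.64 on the naive arrays. The part of other cells in the results was not tested.

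**Figure D1:**
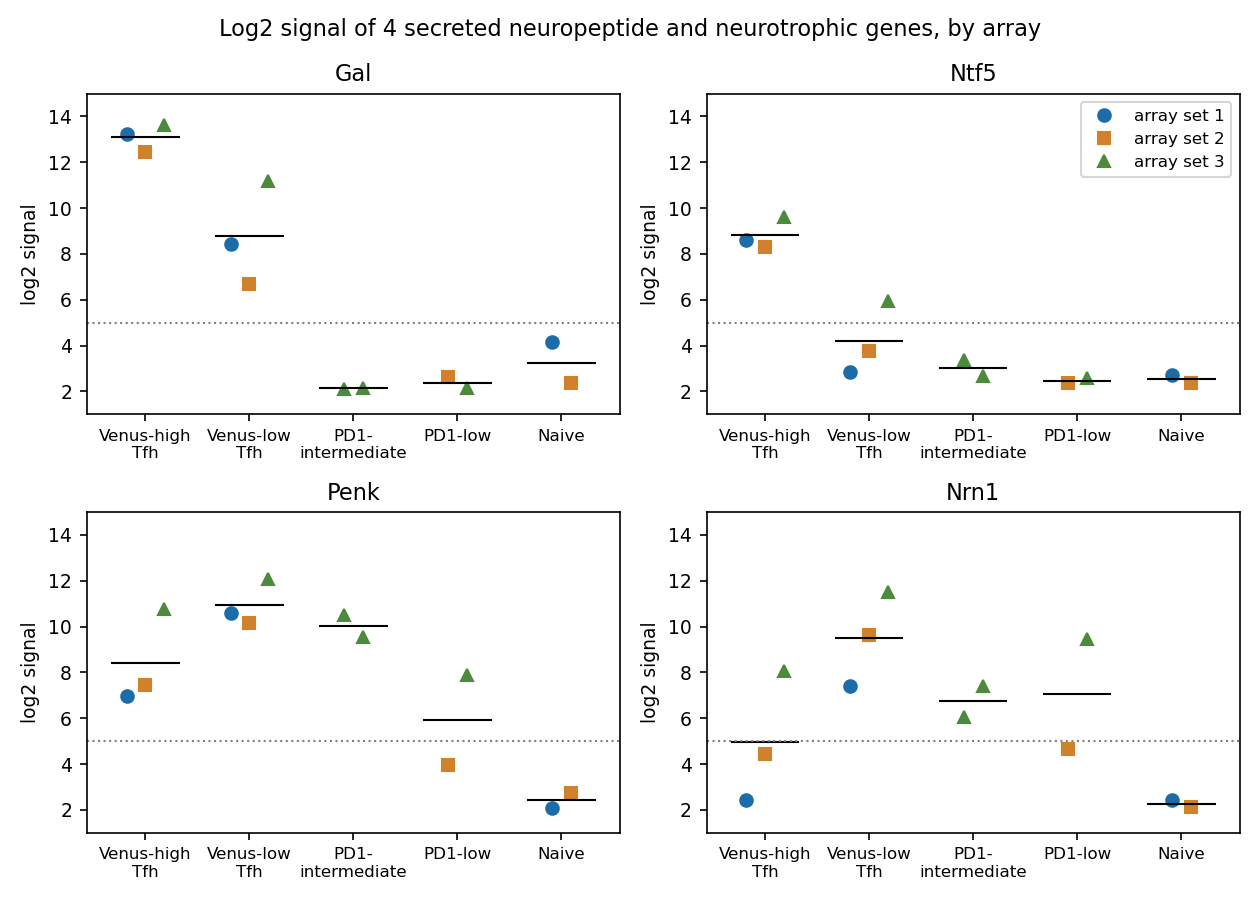
Log2 signal of Gal, Ntf5, Penk and Nrn1 on each of the 12 arrays, by sorted group; each point is 1 pool of mice, its colour and shape give the array set, the bar is the group mean and the dotted line is log2 5. Gal was above the line on all 6 Tfh arrays and below it on the other 6, Ntf5 was above it on the 3 Venus-high arrays and 1 Venus-low array, and Penk and Nrn1 were highest in Venus-low Tfh.

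Gal was high in Tfh and below log2 5 elsewhere. In Venus-high Tfh its log2 signal was 13.24, 12.45 and 13.62 on arrays 1, 2 and 3 (mean 13.10 ± 0.60, SD, n = 3). In Venus-low Tfh it was 8.45, 6.69 and 11.19 (mean 8.77 ± 2.27, SD, n = 3), so that every Venus-low array lay below every Venus-high array. PD1-intermediate cells, which share CXCR5 with Tfh, read 2.12 and 2.16. PD1-low cells read 2.64 and 2.14, and naive cells 4.15 and 2.37. The order of the means was thus Venus-high, Venus-low, naive, PD1-low and PD1-intermediate. PD1-low values overlapped those of naive and of PD1-intermediate cells, while naive and PD1-intermediate values, although all below log2 5, did not overlap each other.

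The Gal difference between Venus-high Tfh and PD1-low cells was 10.72 ± 1.11 (SE), a size that rests on PD1-low values at the bottom of the scale. Against log2 5, the level below which both PD1-low arrays lay, galanin's signal was at least 275-fold higher in Venus-high Tfh. The difference from PD1-intermediate to Venus-low cells was 6.63 ± 1.11, which gives a fold of at least 13.7. Between Venus-high and Venus-low Tfh the difference was 4.33 ± 0.997, or 20.1-fold. Arrays that do not overlap, with the first group the higher, were found for 14.4%, 5.86% and 5.45% of all genes in these 3 contrasts. Within array sets 1, 2 and 3 it was 4.80, 5.76 and 2.43, so the Venus-high array was the higher in each set, with the smallest gap in set 3. The Venus-low minus PD1-intermediate difference within set 3, the set that held both groups, was 9.05.

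The contrasts without a Tfh group were fitted for Gal as well. PD1-intermediate minus PD1-low was -0.25 ± 1.22 (adjusted p = 0.966 in limma) and PD1-low minus naive was -0.87 ± 1.22 (adjusted p = 0.960). Both groups of each contrast lay below log2 5 on every array, so no fold is given. Gal passed the filter through its Tfh arrays alone, and the SE takes in the spread of those arrays. These p-values therefore cannot decide whether the groups differ.

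Ntf5 was narrower in its pattern than Gal. Venus-high Tfh read 8.61, 8.30 and 9.61 (mean 8.84 ± 0.68, SD, n = 3), and Venus-low Tfh read 2.83, 3.78 and 5.93 (mean 4.18 ± 1.59, SD, n = 3). Only Venus-low array 3, of set 3, exceeded log2 5 among the Venus-low arrays. PD1-intermediate cells read 3.38 and 2.67, PD1-low cells 2.35 and 2.58, and naive cells 2.70 and 2.35. Every Venus-high array lay above all 9 other arrays, whereas the Venus-low values overlapped those of PD1-intermediate cells and lay above those of PD1-low and naive cells. The last 2 groups overlapped each other. Venus-high arrays lay above Venus-low arrays without overlap for 5.45% of all genes and above PD1-low arrays for 14.4%. The share for all 9 other arrays is not given here.

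The Ntf5 difference between Venus-high and Venus-low Tfh was 4.66 ± 0.71 (SE), with 2 of the 3 Venus-low arrays below log2 5, so no fold is given. It was 5.78, 4.52 and 3.68 within array sets 1, 2 and 3. Against PD1-low cells the difference was 6.38 ± 0.80, at least 14.3-fold. Venus-low minus PD1-intermediate was 1.15 ± 0.80 over all arrays and 2.90 within set 3, a gap that rests on Venus-low array 3. In the contrasts without a Tfh group, PD1-intermediate minus PD1-low was 0.56 ± 0.87 (adjusted p = 0.859 in limma). PD1-low minus naive was -0.06 ± 0.87 (adjusted p = 0.9999 in limma). All arrays of these groups lay below log2 5. Ntf5 passed the filter through its Tfh arrays alone, so these p-values cannot decide whether the groups differ.

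The shape shared by Gal and Ntf5 was uncommon on the array. Every Venus-high array was at or above log2 5 and every PD1-intermediate, PD1-low and naive array below it in 60 of the 9893 genes tested, or 0.606%. In 23 of these, Gal among them, all Venus-low arrays were also at or above log2 5, and in 18 all Venus-low arrays were below it. Ntf5 belonged to neither, having 1 Venus-low array above the line. Since both genes had been picked for this pattern, these counts describe how common it is and support nothing further.

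Over the 12 arrays, Gal and Ntf5 correlated by Pearson's r = 0.914 and Spearman's rho = 0.776, where the arrays fall into 5 groups and 3 sets that both genes share. Of all tested genes outside the displaced ones, the one most like Gal was Ascl2, a helix-loop-helix transcription factor known in Tfh (r = 0.984 over 12 arrays, and 0.984 after removing set means). Ascl2 read 12.27, 9.30, 2.66, 2.32 and 2.42 as means of Venus-high, Venus-low, PD1-intermediate, PD1-low and naive arrays, the same step between Venus-low Tfh and PD1-intermediate cells that Gal showed. Within the Venus-low group its arrays stood in the same order as those of Gal, at 9.47, 7.83 and 10.58. That order was not particular to Ascl2, since Cxcr5 (13.71, 13.14 and 13.76) and Pdcd1 (13.87, 13.85 and 14.40) also had it. Zcchc12 (r = 0.973) and Dmwd (r = 0.972) came next, and 54 genes exceeded r = 0.9.

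The genes most like Ntf5 were Il13ra1, a cytokine receptor subunit (r = 0.981), Acod1, the enzyme that makes itaconate (r = 0.981), and Fam71b (r = 0.977), among 50 genes above r = 0.9. Il13ra1 averaged 8.80 in Venus-high and 3.30 in Venus-low Tfh, and Acod1 averaged 8.79 and 4.13. Each averaged at most 2.47 in the remaining groups, so the drop lay between the Tfh groups, as for Ntf5. These correlations are descriptions over arrays that share group and set, and carry no test.

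Penk went the other way between the Tfh groups and was not confined to Tfh. Its log2 signal was 10.57, 10.15 and 12.06 in Venus-low Tfh (mean 10.93 ± 1.00, SD, n = 3) and 6.99, 7.45 and 10.79 in Venus-high Tfh (mean 8.41 ± 2.07, SD, n = 3). PD1-intermediate cells read 10.48 and 9.53, PD1-low cells 3.96 and 7.89, and naive cells 2.09 and 2.74. The high value of each of the Tfh and PD1-low groups was its set 3 array. The naive arrays lay below all others, and the order of the means was Venus-low, PD1-intermediate, Venus-high, PD1-low and naive. The values of Venus-high Tfh overlapped those of Venus-low Tfh, PD1-intermediate and PD1-low cells, and those of Venus-low Tfh overlapped those of PD1-intermediate cells. PD1-intermediate arrays lay above PD1-low arrays without overlap, as for 41.2% of all genes, and PD1-low above naive arrays, as for 29.1%.

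Penk did not pass the test between the Tfh groups when sets were left out of the model. Venus-high minus Venus-low was -2.52 ± 1.22 (SE; adjusted p = 0.612 in limma, where 1.31% of all genes were called, 0.435% as higher and 0.879% as lower). Within sets 1, 2 and 3 the difference was -3.58, -2.70 and -1.28, lower in Venus-high Tfh in 3 of 3 sets. The share of all genes that were lower in all 3 sets is not given here. With the set as a term Penk fell by 2.52 ± 0.51 (adjusted p = 0.0187), in a fit that called 16.9% of all genes. Those called lower were 9.42% of all genes. The 6 Tfh arrays alone, with the replicate number as a block, gave an adjusted p of 0.0579 in limma, in a fit that called 1001 genes.

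Along the other contrasts, Penk's difference from PD1-intermediate to PD1-low cells was 4.08 ± 1.49 (adjusted p = 0.258 in limma; 4.01% of genes called), and 2.12 within set 3. Venus-high minus PD1-low was 2.48 ± 1.36 (adjusted p = 0.380; 11.3% called), with 3.49 and 2.89 within sets 2 and 3. Venus-low minus PD1-intermediate was 0.92 ± 1.36 (adjusted p = 0.707; 0.566% called), and 2.06 within set 3. PD1-low minus naive was 3.51 ± 1.49 (adjusted p = 0.958; 0.0809% called), and 1.21 within set 2. Without the set term none of these 4 differences passed the test.

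With the set term in limma, Penk rose by 2.92 ± 0.65 from PD1-intermediate to Venus-low cells (adjusted p = 0.0468; 6.38% of genes called, 3.97% as higher) and by 2.60 ± 0.67 from PD1-low to PD1-intermediate cells (adjusted p = 0.0479; 12.8% called, 8.09% as higher). It rose by 3.00 ± 0.59 from PD1-low to Venus-high cells (adjusted p = 0.00733; 34.7% called, 19% as higher). PD1-low minus naive, 1.99 ± 0.68, did not pass (adjusted p = 0.275; 0.566% called). In this fit Penk stepped up from PD1-low over PD1-intermediate to Venus-low cells and down again to Venus-high cells.

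Nrn1 had the same high group as Penk and depended more on the array set. Venus-low Tfh read 7.41, 9.64 and 11.51 (mean 9.52 ± 2.05, SD, n = 3), and Venus-high Tfh read 2.44, 4.44 and 8.05 (mean 4.98 ± 2.84, SD, n = 3). PD1-intermediate cells read 6.06 and 7.41, PD1-low cells 4.66 and 9.46, and naive cells 2.45 and 2.10. In every group with arrays in set 3 and another set, the set 3 array was the highest. The order of the means was Venus-low, PD1-low, PD1-intermediate, Venus-high and naive, and each of the 4 lymph node groups overlapped each other one. Venus-high and naive values also overlapped.

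For Nrn1, Venus-high minus Venus-low was -4.54 ± 1.69 (SE; adjusted p = 0.368 in limma). Within sets 1, 2 and 3 it was -4.97, -5.20 and -3.46, so that the direction and about the same size were found in both sets in which the probe set was not displaced. With the set as a term Nrn1 fell by 4.54 ± 0.68 (adjusted p = 0.00718), and the 6 Tfh arrays alone with the replicate number as a block gave an adjusted p of 0.0220. The members Penk and Nrn1 were therefore both called lower in Venus-high Tfh with the set term, where 9.42% of all genes were, and neither without it, where 0.879% were.

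Nrn1 against the other groups was less certain. Venus-low minus PD1-intermediate was 2.79 ± 1.89 (adjusted p = 0.574 in limma) over all arrays and 4.78 within set 3, and Nrn1 rose by 5.60 ± 0.86 with the set term (adjusted p = 0.0217). PD1-intermediate minus PD1-low was -0.32 ± 2.07 (adjusted p = 0.980) and -2.16 ± 0.89 with the set term (adjusted p = 0.186). Venus-high minus PD1-low was -2.08 ± 1.89 (adjusted p = 0.665) and -1.10 ± 0.79 with it (adjusted p = 0.321). PD1-low minus naive was 4.78 ± 2.07 (adjusted p = 0.958) and 2.39 ± 0.91 with it (adjusted p = 0.322). Leaving out PD1-low array 1 turned the PD1-intermediate minus PD1-low value to -2.72, and leaving out PD1-low array 2 turned it to 2.08. Without PD1-low array 1 Venus-high minus PD1-low was -4.48, and without PD1-low array 2 it was 0.32.

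**Figure D2:**
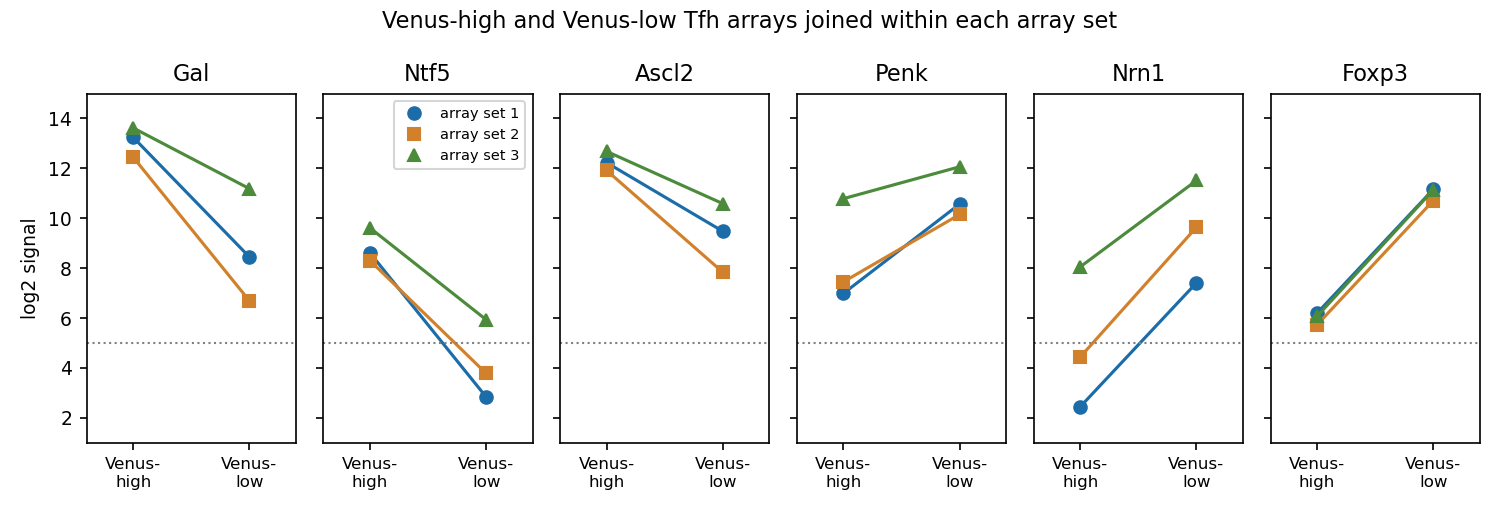
Log2 signal on the Venus-high and Venus-low Tfh arrays for the 4 genes and for Ascl2 and Foxp3, with the arrays of 1 array set joined by a line; the dotted line is log2 5. Gal, Ntf5 and Ascl2 were lower in Venus-low Tfh in each of the 3 sets, and Penk, Nrn1 and Foxp3 were higher in each.

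Because Penk and Nrn1 are also known from regulatory T cells, the regulatory T cell markers are given beside them. Foxp3, the transcription factor that defines these cells, read 6.19, 5.73 and 6.07 in Venus-high and 11.16, 10.71 and 11.13 in Venus-low Tfh. It was 32.1-fold lower in Venus-high Tfh (adjusted p = 0.00183 in limma, kept without each single array). Of the 8 markers, 0 rose and 3 fell between the Tfh groups (0.435% of all genes called as higher and 0.879% as lower), and 0 rose and 4 fell with the set term (7.47% and 9.42%). The 2 others that fell were Gpr83, by 3.99 ± 0.57 (adjusted p = 0.0134), and Ikzf4, at least 10.9-fold (adjusted p = 0.0425). The call of Gpr83 was lost without Venus-low array 2 or 3, and that of Ikzf4 without any single Tfh array other than Venus-low array 1. Il2ra, the gene of the high-affinity interleukin-2 receptor subunit, averaged 4.13 in Venus-high and 9.01 in Venus-low Tfh, a difference of -4.88 ± 1.03 (adjusted p = 0.0669, and 0.00727 with the set term). Ikzf2, Nrp1, Ctla4 and Tnfrsf18 differed by -0.01, 0.14, 0.17 and -0.38 and were not called. The mean log2 signal over the 8 markers ranged from 8.37 to 9.27 over the Venus-high arrays and from 10.17 to 11.65 over the Venus-low arrays. It ranged from 11.33 to 11.65 in PD1-intermediate, 11.34 to 12.73 in PD1-low and 8.68 to 9.05 in naive arrays. In PD1-low cells Foxp3 read 11.52 and 12.34, above Venus-low Tfh, with Penk at 3.96 and 7.89 and Nrn1 at 4.66 and 9.46. In PD1-intermediate cells Foxp3 read from 11.05 to 11.34, with Penk at 10.48 and 9.53 and Nrn1 at 6.06 and 7.41. Naive cells read from 8.22 to 10.14 for Foxp3, and at most 2.74 for Penk and 2.45 for Nrn1. The part of regulatory T cells in the Penk and Nrn1 differences was not tested, and in pooled cells fewer cells of a type and less RNA per cell cannot be told apart.

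The genes most like Penk over the 12 arrays were Snrnp25, a spliceosome protein (r = 0.977), Prdx2, a peroxiredoxin (r = 0.975), and Ncapg2, a subunit of the condensin complex of mitotic chromosomes (r = 0.974). With 320 genes above r = 0.9, Penk's pattern of low naive, middle PD1-low and high CXCR5+ values was a common one. Ncapg2 averaged 9.04 in Venus-high, 11.64 in Venus-low, 10.78 in PD1-intermediate, 6.59 in PD1-low and 4.20 in naive cells, in the order of Penk. For Nrn1 the nearest were Mrpl45, a mitochondrial ribosome protein (r = 0.941), Fam111a (r = 0.937) and Tspoap1 (r = 0.925), and 17 genes exceeded r = 0.9. Penk and Nrn1 correlated with each other by r = 0.808 and rho = 0.783, and the set 3 elevation of both enters that value.

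The receptors through which these peptides act were looked up next, as 8 genes with 25 probe sets between them. The galanin receptor genes Galr1 and Galr2 read at most 2.38 on any array. Ntrk2, the gene of TrkB and the receptor of the Ntf5 product, read at most 2.34 over its 8 probe sets, and Ngfr at most 2.28. Sort1, the gene of sortilin, which binds neurotrophin precursors, read at most 2.38. The opioid receptor genes Oprm1 and Oprd1 read at most 2.21 and 2.23. Oprk1, the kappa receptor gene, was the exception, with 1 of its 2 probe sets between 6.09 and 6.40 on the 3 arrays of set 1 and at most 2.11 on the other 9, whatever the group. A low signal here says that the probe sets were near the bottom of the scale, since no detection calls were used, and not that the transcripts were absent. Galr3 was not analysed here.

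**Figure D3:**
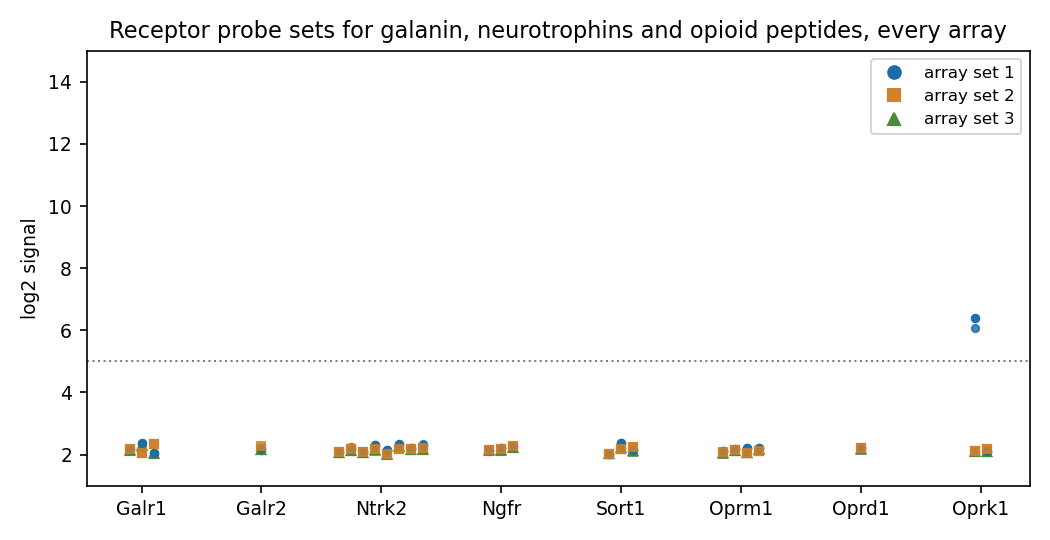
Log2 signal of the 25 receptor probe sets on every array, as 1 column of points per probe set, coloured by array set; the dotted line is log2 5. All but 1 Oprk1 probe set stayed at or below 2.38, and that one was above the line on the set 1 arrays alone.

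The other genes of these pathways were taken from 8 lists of neuropeptides, neurotrophic factors, their receptors and the enzymes that process peptide precursors. Of 149 genes other than the members, 131 had a probe set, 95 of these stayed below log2 5 on every array, and 34 were tested. Probe sets displaced in 1 array set, those of Sh2b1, Oprk1, Nts, Ptn and Ncam1, were kept in the counts and medians. Between Venus-high Tfh and PD1-low cells 3 rose and 8 fell in limma, where 6.34% of all genes were called as higher and 4.93% as lower, with a median difference of 0.35 against -0.10 over all genes. With the set term 11 rose and 10 fell (19% and 15.6% of all genes), so the excess of falls depended on the fit. Between PD1-intermediate and PD1-low cells 4 rose and 1 fell (3.07% of all genes called as higher and 0.94% as lower; median 0.08 against 0.29), and 7 rose and 6 fell with the set term (8.09% and 4.71%). Between the Tfh groups, whose arrays pair, 0 rose and 1 fell (1.31% called; median 0.00 against 0.02), and 4 rose and 6 fell with the set term (7.47% and 9.42%). Between Venus-low Tfh and PD1-intermediate cells limma called 0, where unadjusted p-values under 0.05 went to 2 higher and 6 lower genes. With the set term 3 rose and 1 fell there (3.97% and 2.41% of all genes). Between PD1-low and naive cells it called 0 with and without the set term, and without it 3 genes, all higher, had an unadjusted p under 0.05.

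Among receptors, Ntrk3, the gene of TrkC, whose main ligand is another neurotrophin than the Ntf5 product, was higher in all CXCR5+ groups. It read 9.88, 10.48 and 11.06 in Venus-high, 9.57, 9.86 and 10.69 in Venus-low, 11.39 and 11.28 in PD1-intermediate, 7.34 and 6.49 in PD1-low and 6.08 and 7.24 in naive cells. The CXCR5+ arrays did not overlap the others, and the share of all genes with this split is not given here. PD1-intermediate arrays lay above PD1-low arrays without overlap for 41.2% of all genes, and Venus-high above PD1-low arrays for 14.4%. Ntrk3 rose by 4.42 ± 0.56 from PD1-low to PD1-intermediate cells (adjusted p = 0.00283 in limma) and by 3.56 ± 0.51 from PD1-low to Venus-high cells (adjusted p = 0.00213). Sorcs2, a receptor of the sortilin family that binds neurotrophin precursors, had the opposite pattern. It read 6.22 and 7.18 in PD1-low and 5.26 and 6.07 in naive cells, and at most 2.29 on all 8 CXCR5+ arrays. Relative to PD1-low cells the fold was at least 3.26 downward in PD1-intermediate cells (adjusted p = 2.18e-04 in limma) and in Venus-high cells (adjusted p = 4.88e-05). The calls of Ntrk3 and Sorcs2 were kept without each single array, but not in every other fit. With only the 2 groups compared, limma gave PD1-intermediate minus PD1-low an adjusted p of 0.0552 for Ntrk3 and 0.0602 for Sorcs2. With the replicate block added it was 0.0628 for both. Venus-high minus PD1-low then had an adjusted p of 0.211 for Ntrk3 and 0.155 for Sorcs2.

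Of the other neuropeptide genes, 29 of 36 had a probe set and 25 of those stayed below log2 5, so that 4 were tested. Pmch, the precursor gene of melanin-concentrating hormone, read 6.10, 6.59 and 7.02 in Venus-high, 7.93, 8.01 and 9.99 in Venus-low, 7.64 and 6.57 in PD1-intermediate, 2.98 and 3.62 in PD1-low and 3.03 and 2.96 in naive cells. Like Penk, it had its highest mean in Venus-low Tfh. Above PD1-low cells its fold was at least 4.30 in PD1-intermediate cells (adjusted p = 0.0177 in limma) and at least 2.97 in Venus-high cells (adjusted p = 0.0107). The first call was lost without PD1-intermediate array 1 or 2 or PD1-low array 1 (adjusted p = 0.185, 0.0541 and 0.151), and the second without PD1-low array 1 (adjusted p = 0.0943).

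Ramp3, a partner protein of receptors for adrenomedullin and related peptides, was the pathway gene called lower between the Tfh groups in the fit without the set term. It read 6.39, 6.64 and 6.97 in Venus-high and 9.12, 9.05 and 10.23 in Venus-low Tfh, without overlap, as 5.43% of all genes did in this direction, and fell by 2.80 ± 0.46 (adjusted p = 0.0248 in limma). It rose by 3.04 ± 0.56 from PD1-low to PD1-intermediate cells (adjusted p = 0.0180). The first call was lost without any single Tfh array other than Venus-low array 1 (adjusted p from 0.0648 to 0.0882), and the second without either PD1-intermediate array or PD1-low array 1 (adjusted p from 0.117 to 0.143). From PD1-low to Venus-high cells, Calcrl, the receptor that Ramp3 can join, fell by 1.65 ± 0.44 (adjusted p = 0.0466 in limma; -0.54 over the mean of its probe sets). Vipr1, a receptor of vasoactive intestinal peptide, read 5.21 and 4.82 in PD1-low and at most 2.89 in Venus-high cells (adjusted p = 0.0195). Both calls were lost without Venus-high array 1 or 2 or either PD1-low array.

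The enzymes and helpers of peptide processing did not move as 1 group, with 1 of 9 tested rising and 3 falling from PD1-low to Venus-high cells (6.34% of all genes called as higher and 4.93% as lower), and 3 rising and 3 falling with the set term (19% and 15.6%). Scg5, a chaperone of the prohormone convertase Pcsk2, fell by 4.72 ± 0.56 (adjusted p = 8.02e-04 in limma, kept without each single array). With only these 2 groups and the replicate block its call was lost (adjusted p = 0.185 in limma). Scg5 read 4.58, 3.61 and 5.40 in Venus-high, 4.97, 5.72 and 4.70 in Venus-low and 7.92 to 9.72 on the arrays of the other 3 groups. For Serpini1, a protease inhibitor gene, the fall was at least 7.73-fold (adjusted p = 0.0230) and Pcsk4, a convertase gene, fell by 2.87 ± 0.64 (adjusted p = 0.0207). Both calls were lost without Venus-high array 1 or 2 or either PD1-low array. Ctsl, the gene of cathepsin L, a protease that can process proenkephalin, rose by 4.26 ± 1.15 (adjusted p = 0.0463), a call lost without Venus-high array 2 or 3 or either PD1-low array. From PD1-low to PD1-intermediate cells the signal of Cpd, a carboxypeptidase gene, rose at least 11.9-fold (adjusted p = 0.0186), a call lost without either PD1-intermediate array or PD1-low array 1. Between the Tfh groups Cpd read 3.22, 4.68 and 5.99 in Venus-high and 6.57, 8.62 and 9.12 in Venus-low cells, lower in Venus-high in 3 of 3 sets. The difference was -3.47 ± 0.84 (adjusted p = 0.110 in limma). It passed the test with the set term (SE 0.34, adjusted p = 0.00271), where 9.42% of all genes were called lower. The prohormone convertase gene Pcsk1 and the granule gene Chga stayed below log2 5 on every array.

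Among other neurotrophic factors, 0 of 8 rose and 2 fell from PD1-low to Venus-high cells (6.34% of all genes called as higher and 4.93% as lower). The list's median difference was 1.13, which includes the displaced probe sets of Ptn and Ncam1. Their SD over the Venus-high arrays was 3.98 and 3.49. With the set term 3 rose and 2 fell (19% and 15.6%). The signal of Osm, the gene of the cytokine oncostatin M, fell at least 2.09-fold (adjusted p = 0.00858 in limma), and Clcf1, a cytokine of the ciliary neurotrophic factor family, fell by 1.99 ± 0.36 (adjusted p = 0.00705). Both calls were lost without PD1-low array 2 (adjusted p = 0.0809 and 0.0632).

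**Figure D4:**
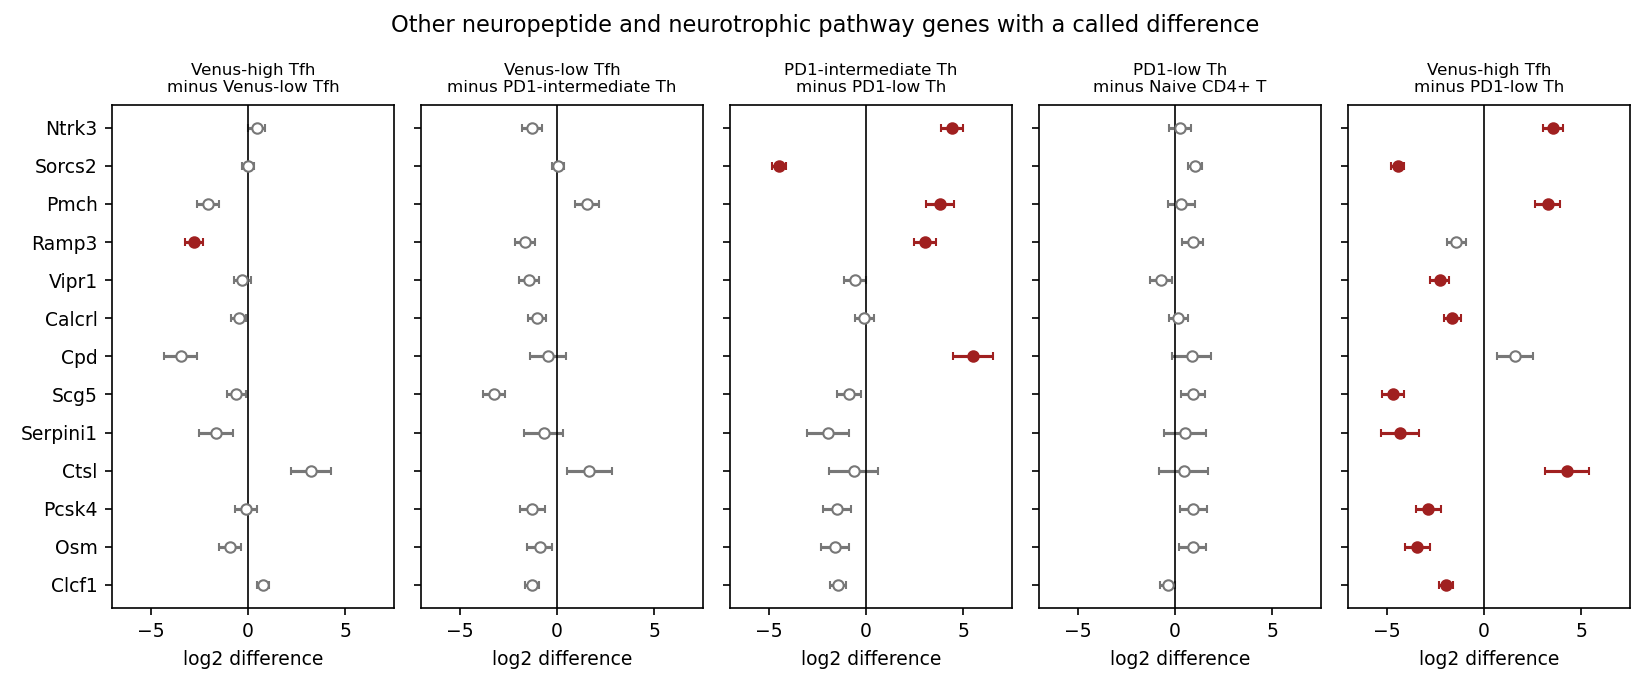
Log2 difference with its SE for the 13 other pathway genes called in at least 1 comparison of the fit without the set term, in 5 panels, 1 per comparison; filled red points passed an adjusted p under 0.05 and open grey points did not. The called differences lie in the panels against PD1-low cells, apart from Ramp3 between the Tfh groups.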

How the data were processed

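Each deposited file gives log2 signals by probe set, which the authors computed with GCRMA per the submitters' processing notes (version not given). Which arrays were normalized together is not given in the sources used here, and no scanner files or detection calls were used. Symbols came from GEO's platform annotation: 34958 probe sets had 1 symbol, 932 several and 9211 none. Probe sets with 1 symbol that reached log2 5 on at least 2 arrays were kept, and the one with the highest mean stood for its gene (9893 genes). The model was a limma fit (3.58.1, in R 4.3.3) of 5 groups to all 12 arrays, which leaves 7 residual degrees of freedom. Tests were moderated and 2-sided, p-values were adjusted by Benjamini-Hochberg across the genes tested, and calls needed an adjusted p under 0.05. Array sets came from hierarchical clustering of the arrays' quantiles cut into 3, and the set as a term left 5 degrees of freedom. Alternatives changed the filter, scaling, probe set choice, variance model, arrays, set, replicate block and floor. "At least" folds are measured against log2 5, where all arrays of the lower group lay below it.

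The members and lists were chosen with earlier results of these data known. Named were the members, their receptors, up to 4 called genes of each list by size of the difference, the 3 genes most like each member, and gate and marker genes. Genes named as below log2 5 and the promoter motifs were chosen after values were seen. Venus-high and Venus-low arrays of equal replicate number were paired by the data: their deviations from the group means correlated by 0.914 to 0.945 in the 3 pairs, across genes, and each pair lay in 1 array set. Numbers of the other groups did not pair. The fit was tested on simulated data. Promoter letters are from RefSeq (GRCm38.p6), where 1 of the 4 members had an entry. Figures were made with matplotlib 3.10.9 under Python 3.11.15.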

Additional observations from a re-analysis of the deposited data

How the results depend on the processing

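Gal and Ntf5 kept their direction in all 3 contrasts with a Tfh group under every alternative run. Both genes had been picked for being higher in Tfh on these same arrays, so this is a description and supports nothing further. Their within-set values that moved by more than the spread between arrays were 2.43, 9.05, 9.81 and 11.48 for Gal (Venus-high minus Venus-low in set 3, Venus-low minus PD1-intermediate in set 3, Venus-high minus PD1-low in sets 2 and 3) and 2.90 and 7.03 for Ntf5 (the last 2 contrasts in set 3). With the replicate block on all 12 arrays Venus-high minus PD1-low was 9.99 for Gal and 5.75 for Ntf5. Gal in PD1-low minus naive cells was 0.26 within set 2. A floor at log2 4 doubled each lower bound by construction. Nrn1 has no value where displaced probe sets are left out.

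Penk and Nrn1 were called only in fits that take up the set or the pairing. With the set as a fixed term the Penk differences were -2.52, 2.92, 2.60 and 3.00, and as a random block -2.52, 2.81, 2.68 and 2.97 (Venus-high minus Venus-low, Venus-low minus PD1-intermediate, PD1-intermediate minus PD1-low, Venus-high minus PD1-low). For Nrn1 they were -4.54 and 5.60, and -4.54 and 5.45, in the first 2 of these, and -4.54 with the replicate block on the 6 Tfh arrays. Of the other Venus-high minus Venus-low calls rerun with that block, those of Foxp3, Gpr83, Ikzf4 and Ramp3 were kept; its values for the remaining pathway genes are not given. Within sets Penk was 2.06 (Venus-low minus PD1-intermediate) and 1.21 (PD1-low minus naive), and Nrn1 4.78 (Venus-low minus PD1-intermediate).

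Counts of called genes depended on the model. In the order Venus-high minus Venus-low, Venus-low minus PD1-intermediate, PD1-intermediate minus PD1-low, PD1-low minus naive and Venus-high minus PD1-low they were 130, 56, 397, 8 and 1115. They became 412, 146, 638, 37 and 1769 after renewed quantile normalization, 1671, 631, 1266, 56 and 3428 with the set as a term, and 1808, 900, 1419, 104 and 3452 with it as a random block. The replicate block on all arrays gave 262, 2757, 692, 25 and 2564. Only the groups compared gave 4, 2, 95, 0 and 431, and with the replicate block 1001, 0, 58, 0 and 0. In that last fit every call named above for Venus-high minus PD1-low was thus lost. Leaving out displaced probe sets gave 85 for Venus-low minus PD1-intermediate and 17 for PD1-low minus naive. Array weights gave 2602 and limma-trend 20 for the former, and no filter 20 and the mean over probe sets 1 for the latter. In the fit of all arrays limma gave 949, 1030, 1219, 427 and 2062 genes an unadjusted p under 0.05. Without 1 array the counts ran from 33 to 152, 5 to 40, 137 to 385, 0 to 41 and 619 to 1021, with the lowest without Venus-low array 2, PD1-intermediate array 2, PD1-intermediate array 1, PD1-low array 2 and PD1-low array 1. Without 1 array the members kept their direction, except Gal in PD1-intermediate minus PD1-low and PD1-low minus naive, Ntf5 in PD1-low minus naive, and Nrn1 in PD1-intermediate minus PD1-low and Venus-high minus PD1-low, none of them called. The cause of the shifts was not tested.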
